A study of Homo sapiens with 2 samples.

Results

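The ATP-binding cassette (ABC) transporter genes were compared between control and NRP2 knockdown libraries of C4-2B ENZR cells by RNA sequencing. Members were all genes whose symbol is ABC, a letter from A to G and a number, in both deposited tables. The rule found 46 of the 26475 symbols listed. Of these, 28 had a mean of at least 1 CPM (reads scaled to library size, the unit of the authors' tables) over both libraries and were compared, among 13316 genes in all that passed this filter.

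C4-2B ENZR is an enzalutamide-resistant form of C4-2B, an established prostate cancer line, and both groups were grown in 20 µM enzalutamide, an antiandrogen drug. The control cells, labelled WT, were infected with lentivirus carrying a non-targeting short hairpin RNA. The knockdown cells carried a hairpin against the coding region of NRP2, which encodes the co-receptor neuropilin-2, and both were selected with antibiotic. A single hairpin is described, and no source used here says whether the cells were a clone or a pool. Each group holds 1 library, so no difference below has a replicate check, and no p-value between the conditions is given.

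ABC proteins bind and split ATP in paired nucleotide-binding domains and use that energy to move a substrate across a membrane. Subfamilies B, C and G hold the multidrug pumps, which carry drugs, conjugates and signalling nucleotides out of cells. Subfamilies A and G hold most of the lipid exporters, subfamily D serves peroxisomes and lysosomes, and subfamilies E and F have no membrane part and act in translation. In tumours the family is best known for drug efflux.

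The 2 libraries held 21052178 (control) and 22992304 (knockdown) reads on genes. NRP2 itself was at 0.974 CPM (control) against 0.330 CPM (knockdown), from 20 and 7 reads, 2.95-fold lower (exact 95% counting interval 1.198 to 8.255). Both values lie under 1 CPM, so NRP2 was not among the compared genes. On the log2(CPM + 1) scale its change was -0.57, short of 1.5-fold. The prostate markers KLK2, KLK3, HOXB13, FOLH1 and TMPRSS2 were all above 1 CPM in both libraries, from 5.60 to 1187 CPM in the control. Of these, KLK3 (5.60 and 41.0 CPM, 7.33-fold), KLK2 (16.4 and 92.5 CPM, 5.65-fold) and TMPRSS2 (117 and 181 CPM, 1.55-fold) were higher with the NRP2 hairpin, KLK3 and KLK2 by more than any compared ABC gene. In the other direction, FOLH1 was at 1187 and 1053 CPM (ratio 0.887, 0.871 to 0.904). HOXB13 was at 511 and 486 CPM (0.951, 0.926 to 0.977), and both differed by less than 1.5-fold. None of the 5 immune markers reached a mean of 1 CPM, with sums of 0.779 and 0.990 CPM. Of 6 fibroblast markers, 2 passed the filter and DCN had 0 reads, with sums of 44.3 and 34.9 CPM, mostly from COL1A1 (41.5 and 32.5 CPM). The 4 endothelial markers summed to 4.09 and 3.87 CPM, mostly from VWF (3.75 and 3.40 CPM). The liver and intestine markers summed to 5.74 and 3.68 CPM, mostly from ALB (2.82 and 1.08 CPM) and TTR (2.14 and 1.89 CPM). APOA2 had 0 reads. With 58 and 23 reads, ALB was 2.60-fold lower (1.58 to 4.42) in the knockdown library. What part such genes have in the results was not tested. In bulk RNA, fewer cells with a transcript and less of it per cell cannot be told apart.

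The ABC family as a whole differed little between the libraries. The threshold was a 1.5-fold difference in CPM + 1, a scale that shrinks differences between low values. The sterol exporter gene ABCG1 and the nucleotide and drug exporter gene ABCC4 were higher in the knockdown library, and 0 members were lower. That is 2 of 28 members, or 7.14%, where 5.78% of all compared genes were as much higher and 3.57% as much lower, so the members' share of calls was near that of all genes. At 2-fold, 0 members were higher or lower, where 1.46% of all genes were higher and 0.526% lower.

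The median log2 change was 0.08 over the 28 members and 0.03 over all compared genes. Of the 28, 20 (71.4%) lay above 0 and 8 below, where 54.1% of all compared genes lay above 0. Within 1.2-fold lay 17 members (60.7%) and 64.2% of all genes. With both libraries set to equal totals, 15 members lay above 0 and 13 below, against 5624 and 7622 of all genes, whose median moved from 0.03 to -0.05. That scaling also changed the split of all 1.5-fold calls, from 769 higher and 476 lower to 587 and 646. All 46 members together took 0.149% of the control reads (exact 95% interval 0.148 to 0.151) and 0.157% of the knockdown reads (0.156 to 0.159). These intervals, and those of ratios below, describe counting error alone, because each group holds 1 library. PCR copies of 1 molecule cannot be recognised here and count as separate reads, so the intervals may be too narrow.

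**Figure D1:**
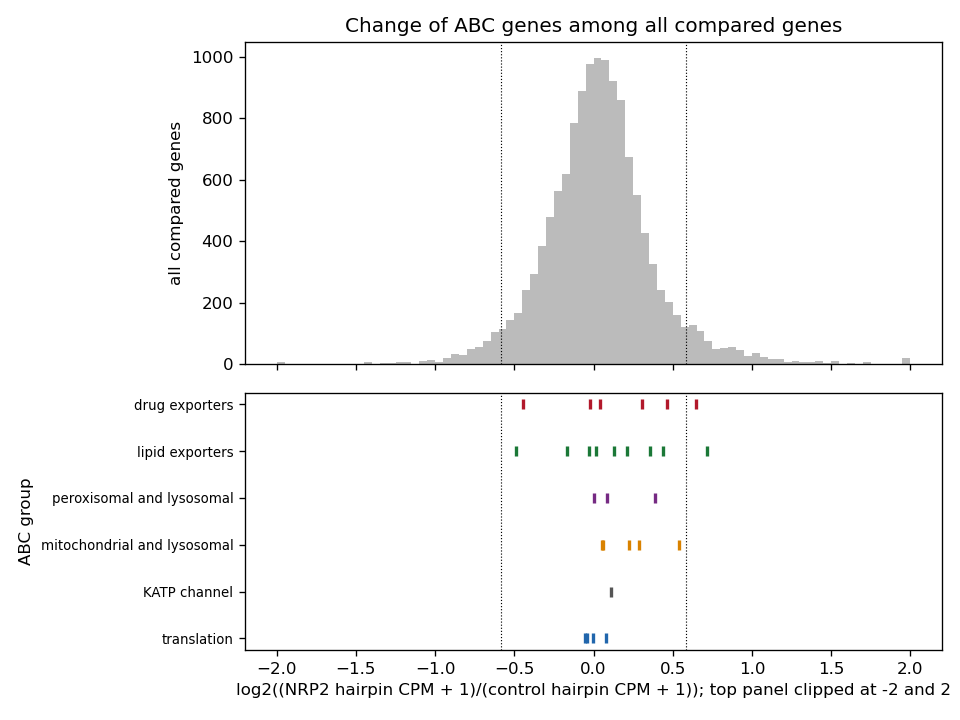
The upper panel counts all 13316 compared genes by log2((knockdown CPM + 1)/(control CPM + 1)), clipped at 2 in either direction, and the lower panel marks each of the 28 compared ABC genes by group. The dotted lines stand at 1.5-fold, and ABCC4 and ABCG1 are the 2 members beyond them, both on the high side.

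The reads behind the CPM values were also tested by an exact conditional binomial model with Benjamini-Hochberg adjustment over all 13316 genes, which called 10 members higher and 2 lower. That test is about these 2 libraries and not about the conditions. The called shares of members were 35.7% and 7.14%, and those of all genes 30.2% and 22.0%. The 2 members called lower were the lipid exporter gene ABCA1 and the drug exporter gene ABCC10, which are described below.

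Upstream sequence is shown for 3 members: ABCC4, which was higher, ABCA1, whose log2 change was the lowest of the compared members, and ABCB6, which lay just under the threshold. Each run is the 250 bases before a gene start, 5′ to 3′ on the gene's strand, from the RefSeq promoter table on GRCh38.p14. That table is on another build than the authors' hg19, and which start these cells use was not measured. Of the 46 members, 35 matched the table, ABCG1 not among them. Capitals mark GGGCGG, the GC box bound by SP1 family factors, and ACGTG, the core bound by hypoxia-inducible and related factors, each on either strand.
ABCC4, chr13:95301452-95301701, minus strand: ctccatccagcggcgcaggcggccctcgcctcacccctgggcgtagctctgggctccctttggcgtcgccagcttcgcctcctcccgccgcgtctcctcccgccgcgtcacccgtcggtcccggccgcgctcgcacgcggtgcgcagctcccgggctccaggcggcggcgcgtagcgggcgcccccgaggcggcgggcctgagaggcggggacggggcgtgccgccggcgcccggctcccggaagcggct
ABCA1, chr9:104928156-104928405, minus strand: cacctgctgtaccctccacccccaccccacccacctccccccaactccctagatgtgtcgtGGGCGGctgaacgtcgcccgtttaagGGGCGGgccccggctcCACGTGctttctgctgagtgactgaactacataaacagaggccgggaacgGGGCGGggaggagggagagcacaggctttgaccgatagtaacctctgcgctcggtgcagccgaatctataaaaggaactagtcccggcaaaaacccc
ABCB6, chr2:219218959-219219208, minus strand: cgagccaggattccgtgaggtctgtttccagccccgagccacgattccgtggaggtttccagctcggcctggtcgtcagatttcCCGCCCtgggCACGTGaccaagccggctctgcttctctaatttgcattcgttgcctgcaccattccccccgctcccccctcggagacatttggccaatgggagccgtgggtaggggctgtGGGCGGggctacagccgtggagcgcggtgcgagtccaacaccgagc

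The ABCC4 run held neither motif, and was 80.4% G and C with 42 CpG, against medians of 58% and 11 over the 35116 windows of the same length in the table. The ABCA1 run held 3 GC boxes, a TATAAA and 1 CACGTG that starts 147 bases before the gene start. The ABCB6 run held 2 GC boxes and 1 CACGTG that starts 156 bases before it. CACGTG reads the same on both strands and so holds ACGTG on each, which is why both runs show a single capital block for it. In all windows of the table, GGGCGG was found in 42.6%, ACGTG in 18.5%, CACGTG in 6.34% and TATAAA in 10.7%. The 35 members matched had 53 windows, of which 25 held GGGCGG, 13 ACGTG, 9 CACGTG and 6 TATAAA. Some of these windows overlap, so a match can count more than once. By member, 21 of the 35 held GGGCGG, 12 ACGTG, 8 CACGTG and 6 TATAAA. A match is a description of letters, and factor binding was not measured.

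Among the 12 drug exporter genes, 6 were compared, of which ABCC4 was higher and 0 were lower. ABCC4 encodes MRP4, which exports cyclic nucleotides, prostaglandins and nucleoside drugs. It was at 24.4 CPM with the control hairpin and 38.8 CPM with the NRP2 hairpin, from 502 and 822 reads. The ratio was 1.59-fold higher (counting interval 1.42 to 1.78), with a log2 change of 0.64. The call of ABCC4 depends on settings: the log2 change was 0.56 with equal library totals and 0.57 with a pseudocount of 5 CPM, both under 1.5-fold. Its transcript shared no stretch of 50 bases with another gene in GENCODE 29.

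ABCC1 encodes MRP1, the exporter of glutathione conjugates and anthracyclines. It was at 110 CPM (control) against 152 CPM (knockdown), from 2258 and 3219 reads, 1.38-fold higher (1.31 to 1.46) and below the threshold. ABCC5, which encodes MRP5, another exporter of cyclic nucleotides, was at 55.4 and 54.4 CPM, a ratio of 0.983 (0.905 to 1.07). ABCC4 and ABCC1 thus had the larger values in the knockdown library, and the 2 values of ABCC5 differed by less than counting error.

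ABCC10, which encodes MRP7, an exporter linked to taxane resistance, had the opposite direction. It was at 28.2 CPM (control) against 20.4 CPM (knockdown), 1.38-fold lower (1.22 to 1.57). ABCG2, the breast cancer resistance protein and a marker of side population cells, was at 2.82 and 3.73 CPM. Its 58 and 79 reads gave a ratio of 1.32 (0.928 to 1.89), so no difference was detectable at this depth.

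ABCC6, a transporter known from pseudoxanthoma elasticum and placed here with its MRP relatives, was at 11.64 and 11.98 CPM (ratio 1.03, 0.859 to 1.23). Its value is uncertain, because 15.1% of the 50-base stretches of its transcript also occur in other genes, first among them its pseudogenes ABCC6P1 and ABCC6P2. ABCC6P1 stood at 2.04 and 3.58 CPM and ABCC6P2 at 3.80 and 5.28 CPM. The 3 genes together were at 17.5 CPM (control) against 20.8 CPM (knockdown), a ratio of 1.19 (1.04 to 1.37).

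The other 6 drug exporter genes were at or near the limit of detection. ABCB1, which encodes P-glycoprotein, the classic multidrug pump, had 1 read in the control and 3 in the knockdown. ABCC2 had 3 and 4 reads, ABCC3 had 4 and 3, and ABCC11 had 3 and 2; these encode MRP2, MRP3 and MRP8, which export conjugates. ABCB5 and ABCC12 had 0 reads in both libraries, which allows up to 0.146 CPM in the control and 0.141 in the knockdown (3 reads each). No difference in these 6 genes could be seen at this depth, and ABCB1, at 0.0487 and 0.141 CPM, was near 0 in both libraries of the resistant line.

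**Figure D2:**
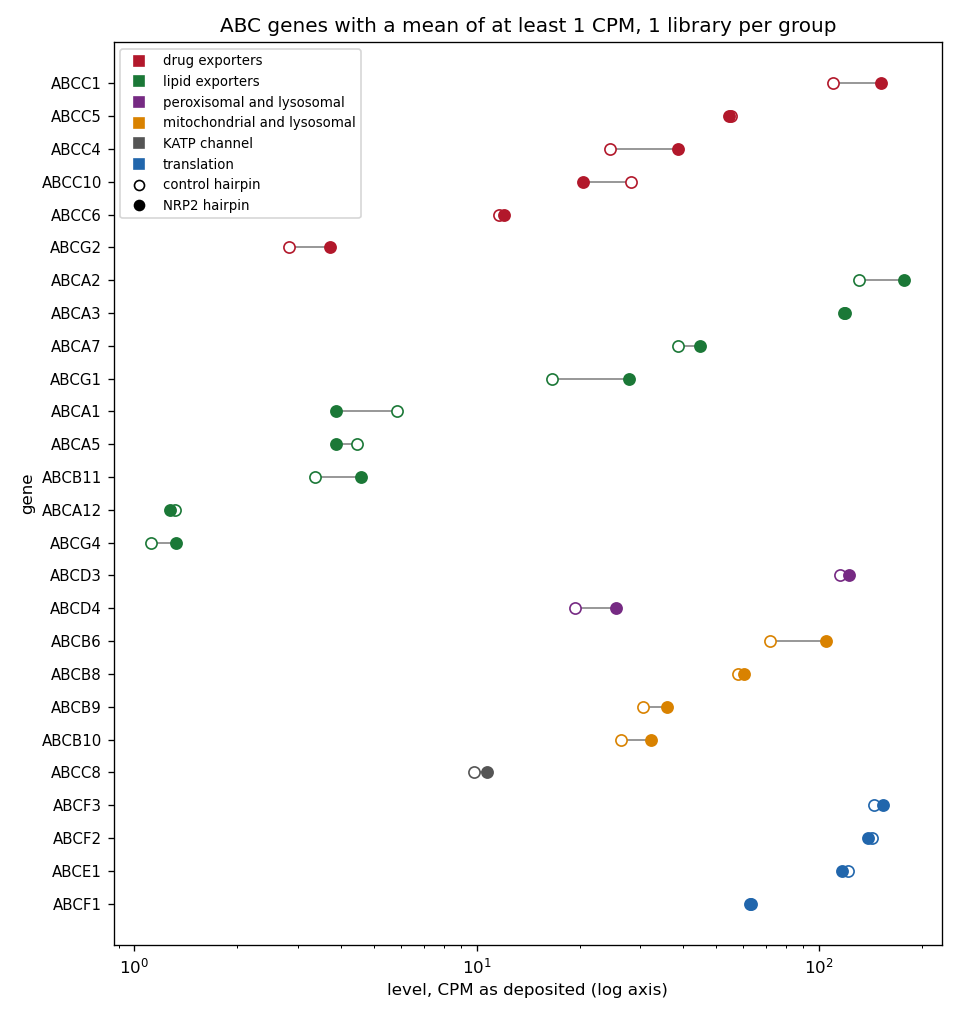
Each row is a compared ABC gene, with the CPM of the control library as an open circle and of the knockdown library as a filled one, on a log axis and coloured by group. ABCG1 moves from 16.6 to 27.8 CPM and ABCC4 from 24.4 to 38.8 CPM, while the 4 translation genes nearly overlap.

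Among the 18 lipid exporter genes, 9 were compared, of which ABCG1 was higher and 0 were lower. ABCG1 moves cholesterol to high density lipoprotein and is induced by the sterol-sensing LXR receptors. It was at 16.6 CPM with the control hairpin and 27.8 CPM with the NRP2 hairpin, from 340 and 590 reads. The ratio was 1.68-fold higher (1.47 to 1.93), and the log2 change of 0.72 was the highest of all compared members. ABCG1 kept its call with equal library totals, at a log2 change of 0.64.

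ABCA1 moves cholesterol and phospholipid to lipid-poor apolipoprotein A-I and is likewise an LXR target, but lay on the other side of 0. It was at 5.84 CPM (control) against 3.87 CPM (knockdown), from 120 and 82 reads. The plain ratio was 1.51-fold lower (1.13 to 2.03). On the log2(CPM + 1) scale the change was -0.49, which is 1.41-fold and not a call. The 2 sterol exporters thus went in opposite directions in these libraries, with counting intervals on either side of 1.

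ABCA2, an endolysosomal transporter of sphingolipid and sterol metabolism, was at 131 CPM (control) against 177 CPM (knockdown), 1.36-fold higher (1.29 to 1.43). ABCA7, a phospholipid exporter known from Alzheimer's disease genetics, was at 38.6 and 44.8 CPM (1.16-fold, 1.05 to 1.28). ABCA3, which loads phospholipid into lamellar bodies of lung cells, was at 118 and 119 CPM. For ABCA3 the ratio was 1.01 (0.954 to 1.07) and its direction turned with equal library totals.

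The other compared lipid genes had few reads, and their counting intervals included 1. ABCA5, a lysosomal sterol transporter, was at 4.48 and 3.87 CPM (0.633 to 1.18). ABCB11, the bile salt export pump of hepatocytes, was at 3.36 and 4.57 CPM (0.990 to 1.88). ABCA12, the ceramide transporter of skin, had 27 reads in each library, and ABCG4, a sterol exporter of brain, had 23 and 28.

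Of the 9 lipid genes not compared, ABCA6, ABCA9, ABCG5 and ABCG8 had 0 reads in both libraries; ABCG5 and ABCG8 form the sterol pump of liver and intestine. ABCB4, the phosphatidylcholine translocator of bile, had 0 and 2 reads, and ABCA8 and ABCA10 had 0 and 1 each. ABCA4, the retinoid transporter of photoreceptors, had 7 and 14 reads, a ratio of 1.94 (0.732 to 5.67). ABCA13 had 24 and 13 reads and was 1.91-fold lower (0.932 to 4.08). These values are within counting error.

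**Figure D3:**
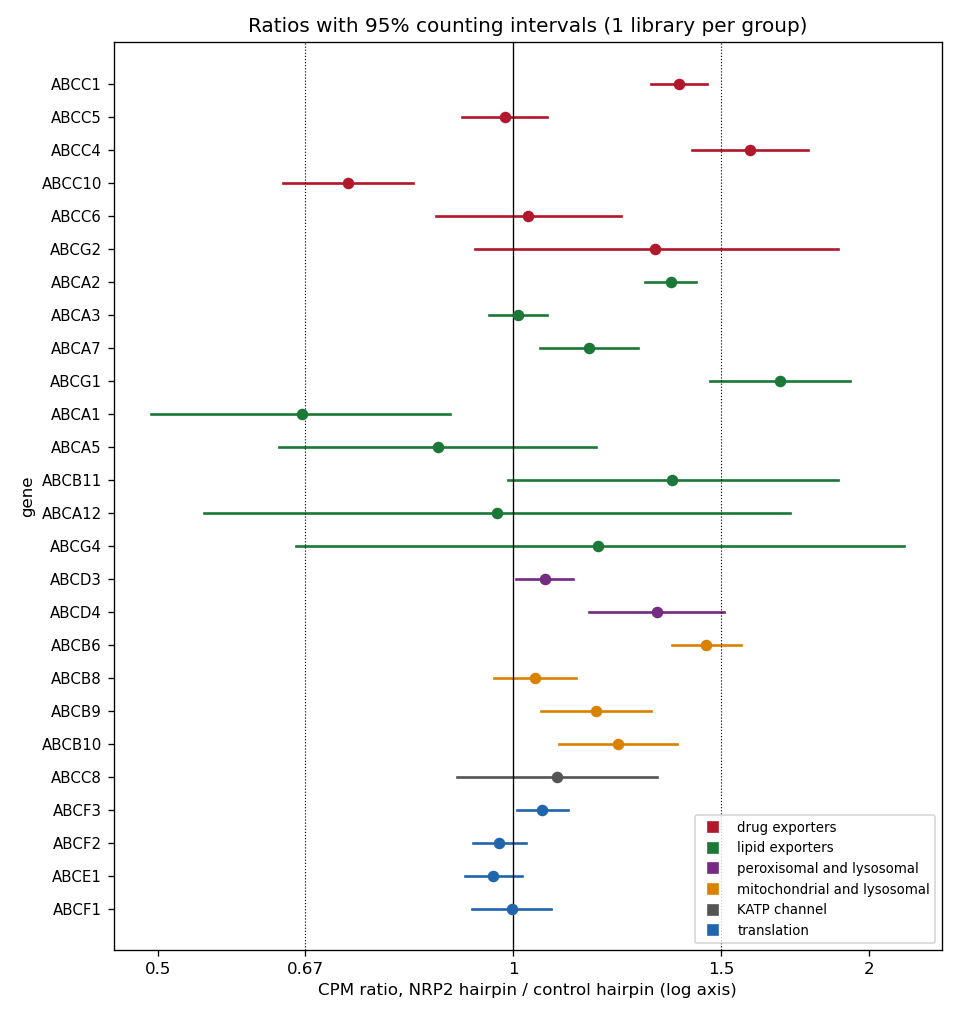
Points give the ratio of knockdown to control CPM for compared ABC genes and bars the exact 95% counting interval, on a log axis, with dotted lines at 1.5-fold in either direction. The intervals of 13 of the 28 compared members (46.4%) exclude 1, 11 above and 2 below, where those of 56.8% of all compared genes do. ABCA1 lies at the dotted line in this plain ratio and is 1.41-fold lower on the log2(CPM + 1) scale.

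The mitochondrial and lysosomal half-transporters of subfamily B had all 5 members above 0 and 0 past the threshold; with equal library totals, 3 of the 5 were above 0. Of all compared genes 54.1% lay above 0, and with equal totals 5624 of 13246. ABCB6, which is linked to porphyrin transport, was at 71.9 CPM (control) against 105 CPM (knockdown), from 1477 and 2222 reads. Its ratio was 1.46-fold higher (1.36 to 1.56), and on the log2(CPM + 1) scale 1.45-fold, the nearest of the members under the threshold, where ABCC4, at 1.56-fold, was the nearest above it. ABCB6 is uncertain: 90.8% of its 50-base stretches also occur in the overlapping model AC068946.2 of GENCODE 29, so reads of the 2 cannot be told apart.

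ABCB10, an inner-membrane transporter needed for heme synthesis, was at 26.4 and 32.4 CPM (1.23-fold, 1.09 to 1.37). ABCB9, a lysosomal peptide transporter, was at 30.6 and 35.9 CPM (1.18-fold, 1.06 to 1.31). ABCB8, part of a mitochondrial potassium channel, was at 57.8 and 60.4 CPM. The interval of ABCB8 included 1, and its log2 change lay below 0 with equal library totals.

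Of the 3 compared genes of subfamily D, 0 passed the threshold. ABCD3, a peroxisomal transporter that imports branched-chain acyl-CoA, was at 115 and 122 CPM (1.06-fold, 1.00 to 1.12). The log2 change of ABCD3 was 0.09, and 0.006 with equal library totals. ABCD4, the lysosomal cobalamin transporter, was at 19.3 and 25.6 CPM, 1.32-fold higher (1.16 to 1.51). ABCD2 was not compared; its 14 and 6 reads gave a ratio 2.41-fold lower (0.870 to 7.65). The 3 compared members lay above 0, and 2 of the 3 did with equal library totals.

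The sulfonylurea receptor ABCC8, the regulatory subunit of ATP-sensitive potassium channels in endocrine cells, was at 9.83 and 10.7 CPM (ratio 1.09, 0.897 to 1.32). ABCC9, its relative in muscle and vessels, had 6 reads and 1 read, which is within counting error (6.19-fold lower, 0.751 to 285). The pore subunit genes stood at 12.17 and 14.95 CPM for KCNJ11 and at 2.19 and 1.70 CPM for KCNJ8. ABCC13, which the tables name as a pseudogene, had 0 reads in both.

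The 4 genes that act in translation differed little. ABCE1, which splits ribosomes for recycling, was at 121 CPM (control) against 117 CPM (knockdown), a ratio of 0.962 (0.909 to 1.02). ABCF1 was at 63.1 and 62.9 CPM, ABCF2 at 142 and 139 CPM and ABCF3 at 145 and 153 CPM; they are relatives of the yeast factor GCN20. Only ABCF3, with a ratio of 1.06 (1.01 to 1.11), had an interval that excluded 1. Its log2 change was 0.08, and 0.0007 with equal library totals. ABCE1 and ABCF2 are uncertain, since 25.6% and 53.5% of their 50-base stretches occur in other models.

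Levels were compared between genes per kilobase of the longest coding transcript of GENCODE 29. On that scale ABCF3 was the most abundant compared member in the control library, at 55.3 CPM per kilobase, and ABCF2 (40.2), ABCD3 (32.4) and ABCE1 (30.9) were also above 30 CPM per kilobase. Of the drug exporters, ABCC1 was at 16.8 CPM per kilobase in the control and 23.2 in the knockdown, above ABCC5 at 9.35 and 9.19. ABCC4 was at 4.17 and 6.62, and ABCC10 at 5.60 and 4.06, so the order of these 2 genes differed between the libraries. ABCG1 was at 4.76 and 8.01 and ABCA1 at 0.557 and 0.369. The transcript in use was not measured, which limits these levels.

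TAP1 and TAP2, ABC genes of subfamily B under other symbols, encode the transporter that supplies peptides for class I molecules. They stood at 50.7 and 59.5 CPM (TAP1) and 62.6 and 74.3 CPM (TAP2). Both were under the threshold, with ratios of 1.17 (1.08 to 1.28) for TAP1 and 1.19 (1.10 to 1.28) for TAP2. CFTR, the chloride channel of subfamily C, had 1 and 2 reads and was not compared.

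Genes that work with the exporters were taken from lists by role. Of 14 compared genes of sterol sensing and lipid efflux, 1 was higher and 0 lower, with a median of 0.10 (0.02 with equal library totals). For comparison with this list and those below, 5.78% of all compared genes were as much higher and 3.57% as much lower. The higher one was SREBF1, a lipogenic transcription factor and LXR target, at 444 and 705 CPM (1.59-fold, 1.55 to 1.63). The LXR genes NR1H2 and NR1H3 stood at 59.6 and 63.3 CPM (NR1H2) and 22.9 and 24.1 CPM (NR1H3). LPCAT3, a phospholipid-remodelling LXR target, was at 172 and 246 CPM, and MYLIP, an LXR-induced ubiquitin ligase, at 19.1 and 25.7 CPM, both under the threshold. In the other direction, RXRB, an LXR partner receptor, was at 54.7 and 40.8 CPM.

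Of 16 compared xenobiotic receptors and conjugation enzymes, 0 were higher and 1 was lower. The lower one was AHR, the aryl hydrocarbon receptor, at 14.7 CPM (control) against 7.59 CPM (knockdown), 1.94-fold lower (1.59 to 2.36). The receptors NR1I2 and NR1I3, which drive ABCB1 and ABCC2 in liver, had 0 reads in both libraries. SULT1A1, a sulfotransferase, was at 8.81 and 13.6 CPM, just under the threshold. NFE2L2, the oxidative stress factor NRF2, was at 76.3 and 58.1 CPM and its inhibitor KEAP1 at 121 and 88.8 CPM. Across the 16 genes, 9 lay above 0 and 7, NFE2L2 and KEAP1 among them, below. The median of this list was 0.10 (0.01 with equal library totals).

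The remaining partner lists held 0 genes past 1.5-fold. These were 14 genes of peroxisomes and cobalamin (median 0.14), 15 of heme and iron-sulfur assembly (0.07), 9 of ribosome recycling and GCN2 signalling (0.09), 2 pore subunits (0.02) and 5 membrane scaffold genes (0.03). The heme list split into 8 genes above 0 and 7 below: ALAS1, the first enzyme of heme synthesis, was at 102 and 144 CPM, and ALAD, the next one, at 41.7 and 32.1 CPM. Of the scaffold genes, SLC9A3R1, whose product NHERF1 anchors MRP4 and CFTR, was at 226 and 315 CPM, and EZR, which encodes ezrin, at 121 and 118 CPM. The median of all compared genes was 0.03. With equal library totals the medians of the heme list (-0.01), the pore subunits (-0.05) and the scaffold genes (-0.05) lay below 0.

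**Figure D4:**
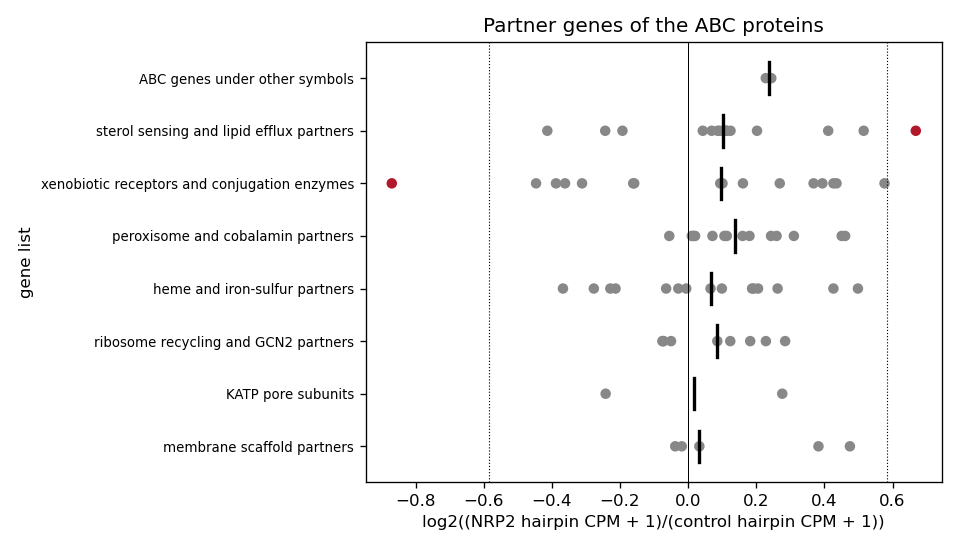
Each point is a compared gene of a partner list, placed by log2((knockdown CPM + 1)/(control CPM + 1)), with the list's median as a black bar and dotted lines at 1.5-fold. The 2 red points past the lines are AHR on the left and SREBF1 on the right.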

How the data were processed

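RNA was sequenced from 1 control and 1 NRP2 knockdown library, grouped by the genotype in the labels. Each deposited table gives 1 signal value for a gene symbol, which the authors scaled by TMM to CPM, per the names of the files. Per the submitters' processing notes, bcl2fastq 2.17, Bowtie2 2.1.0, RSEM 1.2.15, edgeR and hg19 were used; annotation, filters and strand use: not given in the sources used here. Although CPM was assumed in the design, the columns sum to 1024943 and 1084413, so the values were used as deposited and called CPM. Dividing by the value of 1 read (0.0487 and 0.0472) gave whole reads for 100% of values within 0.01 read. In each table, symbols turned into dates (28 symbols, 0.181% and 0.184% of reads) were left out.

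Changes were computed as log2((knockdown + 1)/(control + 1)) where the mean of both libraries reached 1 CPM, with Clopper-Pearson 95% intervals of plain ratios from an exact conditional binomial model (scipy 1.17.1, Python 3.11.15). Scripts were tested on simulated data. Shared sequence was counted as 50-base stretches of the longest coding GENCODE 29 transcript found, on either strand, in another gene; no source used here gives the read length. Of 46 members 45 had such a transcript.

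Members and lists were chosen with earlier results of these data known. Named were members past 1.5-fold, all drug and lipid exporters, the most abundant others and partner genes past 1.5-fold; SULT1A1, NFE2L2, KEAP1, ALAS1, ALAD, SLC9A3R1, EZR, RXRB, LPCAT3, MYLIP, NR1H2, NR1H3, NR1I2, NR1I3, KCNJ8 and KCNJ11 were named in addition after their values were seen, as were the remaining non-exporter ABC genes. GCN1L1 was not found by symbol. The values of a few genes are not reported here by name, although counts and medians include them. Alternatives were other pseudocounts, filters, scalings and thresholds and the binomial test.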

Additional observations from a re-analysis of the deposited data

How the results depend on the processing

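No paired analysis was possible because each group holds 1 library. For the 28 compared members, 2 higher and 0 lower were found with a pseudocount of 0.25 CPM, no filter, a filter at a mean of 5 CPM, a median log2 change of 0 and quantile normalization. With a pseudocount of 5 CPM or equal library totals, 1 member (ABCG1) was higher, so 0 drug exporters and 1 lipid exporter were. At 2-fold, 0 members were higher, and so 0 drug and 0 lipid exporters. The exact conditional binomial test, which called 6954 of all 13316 genes, called 10 members higher and 2 lower, among them 2 drug exporters higher and 1 lower and 3 lipid exporters higher and 1 lower. The median log2 change of the members ranged from 0.00 with equal library totals to 0.08 with a pseudocount of 0.25 CPM. Of single members, 28 of 28 stayed within their counting interval under either pseudocount, the centred median and quantile normalization, and 20 of 28 with equal totals, where 5 turned below 0, ABCA3 (-0.07), ABCB8 and ABCC6 among them. Over all genes, 769 higher and 476 lower became 329 and 159 with a pseudocount of 5 CPM, 465 and 310 with a filter at 5 CPM and 194 and 70 at 2-fold. With 1 library a group, differences between cultures were not measured, and genes with under about 100 reads have wide counting intervals.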
